A study of Mus musculus with 6 samples.

Results

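The genes described here are of the angiopoietin and VEGF systems and their co-receptors: the angiopoietin genes Angpt1 and Angpt2, their receptor genes Tek and Tie1, the vascular endothelial growth factor (VEGF) receptor genes Flt1 and Kdr, the co-receptor genes Nrp1, Nrp2 and Eng, and Egfl7. They are 10 of the 23337 genes of a read count table, found by their gene symbols, and all 10 were present. They were selected on their family and on earlier results of the same contrast between cultures. Differences of these genes between the cultures are therefore given as descriptions, with no test. The libraries held polyadenylated RNA of mouse hematopoietic stem and progenitor cells that carry MLL-AF9, a fusion oncogene found in acute leukemia. Of the 6 libraries, 3 came from pro-lymphoid culture (replicates 1, 5 and 6) and 3 from pro-myeloid culture (replicates 2, 3 and 4), and all 6 carry the oncogene. These replicate numbers are the running numbers in the titles of the 6 libraries. The comparison addressed transcriptional differences between these cultures. The labels give no strain, age, clone, medium or time in culture, and include no untransformed cells. Whether the libraries stand for independent cultures or mice is not stated either, and the p-values below may thus reflect technical spread alone.

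Angiopoietins are secreted ligands of the receptor tyrosine kinase TIE2, which Tek encodes. Angpt1 activates TIE2, and Angpt2 acts as an activator or an antagonist depending on the setting. Tie1 encodes a relative that binds no angiopoietin by itself and modulates TIE2 signaling. Flt1 and Kdr encode the first and the second VEGF receptor, and the neuropilins NRP1 and NRP2 bind both VEGF and class 3 semaphorins. In bone marrow, Angpt1 is known as a ligand that acts on TIE2 of hematopoietic stem cells and blood vessels, and FLT1 is also found on monocytes. Eng encodes endoglin, a co-receptor of the TGF-beta and BMP family, and Egfl7 a secreted protein of endothelial and hematopoietic cells.

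The promoters of the genes with entries whose libraries did not overlap between the cultures are shown for reference, as the 250 bases before the annotated start (RefSeq, GRCm38.p6, the mm10 build), written 5′ to 3′ on the gene's strand. RefSeq promoter entries were found for 8 of the 10 genes, and Angpt1 and Angpt2 were not among them. Capitals mark matches on either strand to short motifs of ETS factors (AGGAAG), factors of the GATA family (AGATAA), RUNX factors (TGTGGT), the E-box (CAGCTG), the core of the hypoxia response (ACGTG) and the cAMP response element (TGACGTCA). The letters for ETS and cAMP response were chosen after the sequences had been read. Nrp2 lies at chr1:62703067-62703316 on the plus strand, Flt1 at chr5:147726012-147726261 on the minus strand, Tie1 at chr4:118489850-118490099 on the minus strand, Eng at chr2:32646345-32646594 on the plus strand, and the first of 3 Egfl7 starts at chr2:26580833-26581082 on the plus strand.
Nrp2: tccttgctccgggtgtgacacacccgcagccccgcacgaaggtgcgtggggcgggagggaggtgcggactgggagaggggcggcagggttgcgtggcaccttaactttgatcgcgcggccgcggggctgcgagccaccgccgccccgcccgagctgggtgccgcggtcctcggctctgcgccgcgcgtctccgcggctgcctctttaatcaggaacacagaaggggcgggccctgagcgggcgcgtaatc
Flt1: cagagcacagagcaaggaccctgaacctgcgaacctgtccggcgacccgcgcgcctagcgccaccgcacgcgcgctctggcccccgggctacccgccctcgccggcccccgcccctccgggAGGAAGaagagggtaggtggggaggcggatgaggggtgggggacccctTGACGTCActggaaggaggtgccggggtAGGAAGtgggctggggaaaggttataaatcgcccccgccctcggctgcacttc
Tie1: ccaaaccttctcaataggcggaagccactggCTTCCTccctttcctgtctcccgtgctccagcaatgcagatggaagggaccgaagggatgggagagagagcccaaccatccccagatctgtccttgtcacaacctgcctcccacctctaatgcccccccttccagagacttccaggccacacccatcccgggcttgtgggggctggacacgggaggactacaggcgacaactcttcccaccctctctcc
Eng: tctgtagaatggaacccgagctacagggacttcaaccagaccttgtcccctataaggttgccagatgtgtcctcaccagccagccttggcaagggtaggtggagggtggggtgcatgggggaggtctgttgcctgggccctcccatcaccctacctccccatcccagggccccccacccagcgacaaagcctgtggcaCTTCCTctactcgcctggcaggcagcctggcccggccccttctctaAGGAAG
Egfl7: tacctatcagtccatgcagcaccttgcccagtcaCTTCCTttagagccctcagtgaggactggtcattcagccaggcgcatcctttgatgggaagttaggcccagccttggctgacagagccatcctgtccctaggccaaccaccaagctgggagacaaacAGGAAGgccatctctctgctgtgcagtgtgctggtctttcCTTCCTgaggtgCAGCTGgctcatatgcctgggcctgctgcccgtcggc
The Nrp2 window was 72.4% G and C and held no match to the 6 motifs. The Flt1 window, 70.4% G and C, held AGGAAG at positions -129 and -53 and TGACGTCA at -81, counted from the start site. The Tie1 window held AGGAAG at -219 (minus strand). The Eng window held AGGAAG at -52 (minus strand) and -6. The Egfl7 window held it at -216, -89 and -49, with CAGCTG at -37. Of the other 2 Egfl7 starts, not shown, 1 held a single AGGAAG at -80 and 1 held no match. No matches overlapped. Of 32851 mouse promoter windows of this length, 29.48% held AGGAAG, 9.99% AGATAA, 14.05% TGTGGT, 13.0% CAGCTG, 16.57% ACGTG and 1.55% TGACGTCA. A match is a description of these letters, and factor binding was not measured.

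Levels are CPM, read counts divided by the library's total and scaled for library composition (TMM). The libraries held 34972488 to 46724382 counts, at which 3 counts in 1 library stand for 0.0650 to 0.0888 CPM. The first principal component, with 82.3% of the variance, separated the cultures, and the second, with 7.91%, set pro-myeloid replicate 2 (52.9) apart from pro-myeloid replicates 3 and 4 (-32.0 and -19.5). Results that move by more than 1.5-fold without a library are given with and without it, apart from some genes outside the naming rule given under processing. In bulk RNA, fewer cells with a transcript and less transcript per cell cannot be told apart. Over all genes, 12477 passed the low-count filter. Of these, 38.6% had an edgeR adjusted p under 0.05, 17.4% with a higher and 21.3% with a lower level in pro-lymphoid culture, and the groups did not overlap for 53.5%.

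Of the 10 genes, 7 passed the filter and 3 (Tek, Tie1 and Kdr) had too few counts. Among the 7, the groups did not overlap for 5, of which Angpt1, Eng and Egfl7 were higher and Nrp2 and Flt1 lower in pro-lymphoid culture, while Angpt2 and Nrp1 had overlapping groups. Since this contrast chose the genes, nothing is read from that count against the 53.5% of all tested genes. Angpt1 and Eng passed the filter only through the pro-lymphoid libraries, and Nrp2 only through the pro-myeloid ones.

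**Figure D1:**
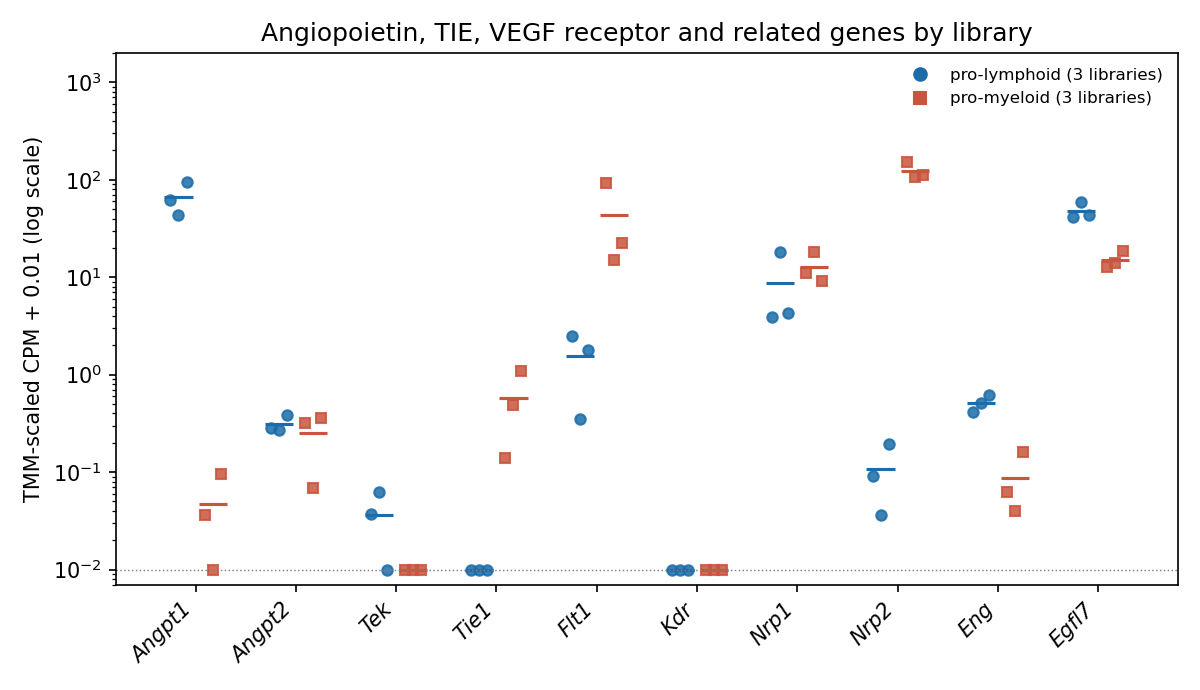
Levels of the 10 genes (x axis) as scaled CPM plus 0.01 on a log y axis in each library, circles for pro-lymphoid and squares for pro-myeloid culture, with a line at each mean and a dotted line at 0 counts. Angpt1 lies between 43.7 and 94.0 CPM in pro-lymphoid libraries and Nrp2 between 106 and 151 CPM in pro-myeloid libraries, each below 0.2 CPM in the other culture.

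Angpt1 was present in every pro-lymphoid library and nearly absent from the pro-myeloid ones. It had 2308, 1671 and 4041 counts in pro-lymphoid replicates 1, 5 and 6, and 1, 0 and 4 counts in pro-myeloid replicates 2, 3 and 4. These are levels of 62.6, 43.7 and 94.0 CPM against 0.0260, 0 and 0.0867 CPM. The lowest pro-lymphoid library was far above the highest pro-myeloid one, and the pro-myeloid values rest on 5 reads in all. The means were 66.8 ± 25.4 and 0.0376 ± 0.0445 CPM (SD, n = 3), and the ratio of the pooled counts was 1607 (95% exact counting interval 688 to 4951, which covers counting error only). The fitted log2 fold change was 10.53 ± 0.53 (SE), and 11.93 without pro-myeloid replicate 4, which held 4 of the 5 reads. Angpt1 lies on chromosome 15 (42424725 to 42676795, minus strand, mm10), and its reads were counted over 9 exons.

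Angpt2, the antagonist or context-dependent ligand, was low in both cultures. Its counts were 10, 10 and 16 in pro-lymphoid and 12, 2 and 16 in pro-myeloid libraries. The mean levels were 0.302 ± 0.0613 and 0.240 ± 0.157 CPM (SD, n = 3), and the groups overlapped. The fitted log2 difference was 0.27 ± 0.56 (SE), and -0.12 without pro-myeloid replicate 3. The gene lies within Mcph1 on the opposite strand of chromosome 8 (18691337 to 18741551) and shares no exon bases with it.

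The receptors of the angiopoietins were at or near 0. Tek, which encodes TIE2, had 1, 2 and 0 counts in pro-lymphoid libraries and 0 in all pro-myeloid ones, so that no fold is given. In the culture with high Angpt1, its receptor transcript totalled 3 reads. Tie1 showed the other pattern, with 0 counts in all pro-lymphoid libraries and 5, 16 and 50 counts in pro-myeloid replicates 2, 3 and 4 (0.130, 0.474 and 1.08 CPM). Its groups did not overlap. With a floor of 3 counts set for the pro-lymphoid group, Tie1 was at least 23-fold lower there, and at least 11-fold lower without pro-myeloid replicate 4, the highest library. Leaving out 1 pro-lymphoid library, which reduces the depth behind the floor, gave limits of 15 to 16-fold. Both genes lie on chromosome 4, Tek at 94739300 to 94874939 and Tie1 at 118471191 to 118489849.

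The VEGF receptors Flt1 and Kdr differed from each other in detection. Kdr, the main signaling receptor of endothelial cells, had 0 counts in all 6 libraries, which allows at most 0.0127 CPM over their 236554298 counts. Flt1 had 92, 13 and 76 counts in pro-lymphoid and 3595, 512 and 1023 counts in pro-myeloid libraries. These correspond to 2.496, 0.340 and 1.77 CPM against 93.6, 15.2 and 22.2 CPM. The groups did not overlap, and pro-myeloid replicate 2, the library that stood apart, was far above the other pro-myeloid libraries. The means were 1.53 ± 1.10 and 43.7 ± 43.4 CPM (SD, n = 3). The ratio of the pooled counts was 28.3 (95% counting interval 24.4 to 33.0), and the fitted log2 fold change was -4.83 ± 0.90 (SE). Without pro-myeloid replicate 2 it was -3.61. Flt1 lies on chromosome 5 (147562196 to 147725988, minus strand), as does Kdr (75933270 to 75978428).

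The neuropilins showed different patterns. Nrp2 had 3, 1 and 8 counts in pro-lymphoid and 5781, 3588 and 5168 counts in pro-myeloid libraries. Its levels were 0.0814, 0.0262 and 0.186 CPM against 151, 106 and 112 CPM, so that it was nearly absent from one culture and steady in the other. The means were 0.0979 ± 0.0813 and 123 ± 24.1 CPM (SD, n = 3), and the pooled ratio was 1209 (95% counting interval 692 to 2341). The fitted log2 fold change was -10.20 ± 0.35 (SE), and -11.08 without pro-lymphoid replicate 6, which held 8 of the 12 pro-lymphoid reads. Nrp2 lies on chromosome 1 (62703317 to 62818692). A noncoding gene on the opposite strand within it, 4930487H11Rik, shares no exon bases with it.

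Nrp1 was detected in all libraries, with 145, 689 and 186 counts in pro-lymphoid and 421, 613 and 417 counts in pro-myeloid libraries. Its levels were 3.93, 18.0 and 4.33 CPM against 10.97, 18.2 and 9.04 CPM. Pro-lymphoid replicate 5 lay within the pro-myeloid range and the other pro-lymphoid libraries below it. The fitted log2 difference was -0.53 ± 0.60 (SE), and -1.61 without pro-lymphoid replicate 5. Nrp1 lies on chromosome 8 (128359073 to 128505475).

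Eng was low but higher in each pro-lymphoid library. Its counts were 15, 19 and 26 in pro-lymphoid and 2, 1 and 7 in pro-myeloid libraries, or 0.407, 0.497 and 0.605 CPM against 0.0521, 0.0296 and 0.152 CPM. The groups did not overlap, with means of 0.503 ± 0.0992 and 0.0778 ± 0.0650 CPM (SD, n = 3). The pooled ratio was 6.01 (95% counting interval 3.05 to 13.2), and the fitted log2 fold change was 2.55 ± 0.56 (SE), or 3.51 without pro-myeloid replicate 4. Eng (chromosome 2, 32646595 to 32682669) shares 61 exon bases with Fpgs on the opposite strand, and the counting did not use strand. Fpgs, which encodes the enzyme that adds glutamates to folates, stood at 30.8 ± 4.35 against 17.7 ± 1.68 CPM (SD, n = 3) and was also higher in pro-lymphoid culture (edgeR adjusted p = 0.00787). Its part in the reads of Eng was not tested.

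Egfl7 was abundant in both cultures and higher in the pro-lymphoid one. It had 1514, 2275 and 1851 counts against 485, 468 and 862 counts, or 41.1, 59.5 and 43.1 CPM against 12.6, 13.9 and 18.7 CPM. The groups did not overlap, with means of 47.9 ± 10.1 and 15.1 ± 3.20 CPM (SD, n = 3) and a pooled ratio of 3.11 (95% counting interval 2.95 to 3.28). The fitted log2 fold change was 1.67 ± 0.22 (SE). Egfl7 lies on chromosome 2 (26581056 to 26592682), and an intron of it holds the microRNA miR-126a at chr2:26591402-26591423, plus strand (RefSeq, GRCm38.p6), shown here because it is transcribed with its host gene.
miR-126a-3p: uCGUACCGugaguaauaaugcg
Capitals mark the seed, bases 2 to 8. The Mir126 row of the table had 1 count over all libraries. Poly(A) libraries do not measure mature microRNAs, so its level in these cells was not analysed here.

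**Figure D2:**
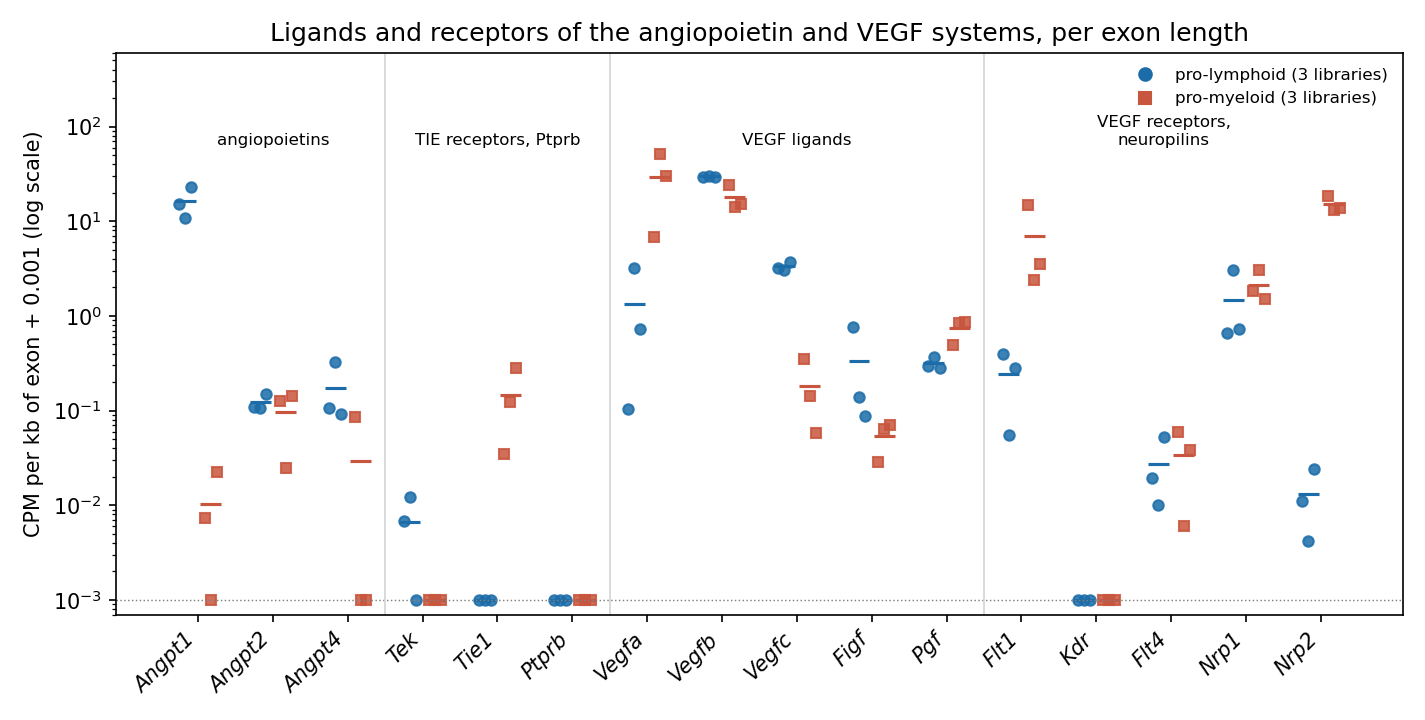
Levels, as scaled CPM per kb of exon plus 0.001 on a log y axis, of angiopoietins, TIE receptors with Ptprb, VEGF ligands, and VEGF receptors with neuropilins (x axis) in each library, circles for pro-lymphoid and squares for pro-myeloid culture, with lines at the means and a dotted line at 0 counts. Angpt1 and Vegfc lie higher in pro-lymphoid libraries, Vegfa, Flt1 and Nrp2 higher in pro-myeloid libraries, and Kdr and Ptprb lie at 0 counts in both.

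Levels of different genes were compared per kb of exon. In pro-lymphoid culture Egfl7 stood highest at 29.4 CPM per kb, followed by Angpt1 at 16.4 and Nrp1 at 1.48 CPM per kb, and the libraries of these neighbours did not overlap. Flt1 (0.244), Eng (0.141) and Angpt2 (0.122 CPM per kb) came next, with overlap between Flt1 and Eng and between Eng and Angpt2. Nrp2 was at 0.0121 CPM per kb, and its libraries overlapped those of Tek at 0.00569 CPM per kb. In pro-myeloid culture Nrp2 stood highest at 15.1 CPM per kb, above Egfl7 at 9.26 CPM per kb with no overlap. Egfl7 overlapped Flt1 at 6.95 CPM per kb, and Flt1 overlapped Nrp1 at 2.15 CPM per kb. Below these came Tie1 (0.145), Angpt2 (0.0968), Eng (0.0218) and Angpt1 (0.00922 CPM per kb), each overlapping the next. Angpt1 thus held the second place in one culture and the eighth in the other, and Nrp2 the seventh and the first.

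The other VEGF ligands and the partners of these receptors are not among the 10 genes, and their tests come from the fit across all genes. They and the gene lists below were also chosen with earlier results of these data known. Their p-values, counts and medians are therefore descriptions, and nothing is read from them about a list as a whole. Vegfa, the main ligand of FLT1 and KDR, was lower in pro-lymphoid culture, at 0.434, 13.3 and 3.002 CPM against 28.8, 214 and 125 CPM (edgeR adjusted p = 0.0167, log2 fold change -4.46 ± 1.10 SE). Without pro-lymphoid replicate 5 the change was -6.11, without pro-myeloid replicate 3 it was -3.79, and the call was lost without pro-lymphoid replicate 6 (edgeR adjusted p = 0.0711). Vegfa and Flt1 were thus both lower in pro-lymphoid culture, although Flt1 was highest in pro-myeloid replicate 2, the pro-myeloid library with the lowest Vegfa. Vegfc, a ligand of the lymphatic receptor FLT4, was higher in pro-lymphoid culture, at 6.05, 5.75 and 7.07 CPM against 0.651, 0.266 and 0.108 CPM (edgeR adjusted p = 4.91e-04, log2 fold change 4.23 ± 0.44 SE, and 5.13 without pro-myeloid replicate 2). Vegfb, which binds FLT1, stood at 38.2 ± 0.634 against 23.0 ± 7.07 CPM (SD, n = 3, edgeR adjusted p = 0.0319). Pgf, the placental growth factor gene and another FLT1 ligand, was lower, at 0.493 ± 0.0721 against 1.16 ± 0.328 CPM (SD, n = 3, edgeR adjusted p = 0.0332). The calls of Vegfb and Pgf were lost without any single library other than pro-myeloid replicate 2, and that of Pgf also with DESeq2, limma-voom or no filter (adjusted p = 0.0515 to 0.0602). In edgeR without those libraries the adjusted p was 0.0685 to 0.113 for Vegfb and 0.0735 to 0.121 for Pgf. Flt4 (0.154 ± 0.131 and 0.195 ± 0.156 CPM), the fourth angiopoietin Angpt4 (0.266 ± 0.200 and 0.0434 ± 0.0752 CPM) and Figf, which encodes VEGF-D (0.621 ± 0.709 and 0.1002 ± 0.0421 CPM), had too few counts for the test. Ptprb, the phosphatase that restrains TIE2, had 0 counts in all libraries.

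Per kb of exon, Vegfb at 29.8 CPM per kb was the highest of the VEGF ligands in pro-lymphoid culture, and Vegfa at 29.4 ± 22.2 and Vegfb at 17.9 ± 5.51 CPM per kb (SD, n = 3) were the highest in pro-myeloid culture. Vegfc at 3.35 CPM per kb in pro-lymphoid culture stood well above its receptor Flt4 at 0.0265 CPM per kb.

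Of 17 other genes of angiopoietin and TIE signaling, 14 were tested, of which 4 rose, 4 fell and 6 did not pass (median log2 fold change -0.14, against -0.000195 over all tested genes). Svep1, a large extracellular matrix protein known as a ligand of TIE1, showed the largest difference, at 0.109, 0.0262 and 0.140 CPM in pro-lymphoid and 171, 201 and 174 CPM in pro-myeloid libraries (edgeR adjusted p = 1.64e-07, log2 fold change -10.89 ± 0.27 SE). Tie1 itself was detected in the same libraries and in none of pro-lymphoid culture. Grb14, an adaptor that binds activated receptor kinases, had 0 counts in pro-lymphoid culture and 3.42 ± 0.748 CPM in pro-myeloid culture (SD, n = 3), at least 134-fold lower (edgeR adjusted p = 9.35e-04). That limit was 85 to 92-fold without any 1 pro-lymphoid library. Foxo1, a transcription factor that AKT inhibits downstream of TIE2, fell from 30.1 ± 5.10 in pro-myeloid to 6.70 ± 0.945 CPM in pro-lymphoid culture (SD, n = 3, edgeR adjusted p = 2.78e-04).

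Of 20 further VEGF ligand and signaling genes, including the ligands above, 14 were tested, of which 3 rose, 3 fell and 8 did not pass (median log2 fold change 0.09). Plcg1, the phospholipase that VEGF receptors activate, was higher at 35.8 ± 4.47 against 17.9 ± 0.720 CPM (SD, n = 3, edgeR adjusted p = 0.00197). Mapkapk2, a kinase downstream of p38, was lower at 457 ± 32.2 against 918 ± 271 CPM (SD, n = 3, edgeR adjusted p = 0.0095). Cdc42, a small GTPase of cell movement, stood at 566 ± 20.1 against 666 ± 26.8 CPM (SD, n = 3) and did not pass (edgeR adjusted p = 0.136). It passed with DESeq2 (adjusted p = 0.0300).

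The semaphorin side of the neuropilins was sparse. Of 17 ligand, plexin and effector genes only 7 were tested, of which 2 rose, 2 fell and 3 did not pass (median log2 fold change -0.28). Fyn, a SRC family kinase used by plexins, rose to 109.7 ± 50.1 from 7.62 ± 3.28 CPM (SD, n = 3, edgeR adjusted p = 7.20e-04, log2 fold change 3.85 ± 0.44 SE). Plxnd1, a plexin of vascular patterning, was lower at 82.8 ± 38.0 against 241 ± 55.2 CPM (SD, n = 3, edgeR adjusted p = 0.0086), as was Fes, a kinase of myeloid cells, at 149.9 ± 12.8 against 296 ± 93.9 CPM (SD, n = 3, edgeR adjusted p = 0.0113).

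On the endoglin side, 18 of 22 TGF-beta and BMP genes were tested, of which 2 rose, 5 fell and 11 did not pass (median log2 fold change -0.35). Smad1, the signal carrier of BMP receptors, stood at 0, 0.183 and 0.116 CPM in pro-lymphoid and 74.7, 55.2 and 67.4 CPM in pro-myeloid libraries (edgeR adjusted p = 3.26e-06, log2 fold change -9.30 ± 0.40 SE, and -9.97 without pro-lymphoid replicate 5). Id1, a target gene of that branch, fell to 1.44 ± 0.665 from 34.9 ± 9.83 CPM (SD, n = 3, edgeR adjusted p = 2.06e-04). Bmpr1a, a BMP receptor gene, was lower at 0.294 ± 0.115 against 24.9 ± 21.8 CPM (SD, n = 3, log2 fold change -6.41, edgeR adjusted p = 0.0014, and -5.40 without pro-myeloid replicate 2). Acvrl1, the ALK1 receptor that works with endoglin, stood at 9.05 ± 4.10 against 12.3 ± 5.88 CPM (SD, n = 3) and did not pass (edgeR adjusted p = 0.468). Eng was thus higher in the culture in which Smad1, Id1 and Bmpr1a were lower. The 2 genes of the list that rose, as Eng did, were Smad6 and Smad3. Smad6 stood at 4.78 ± 0.464 against 1.22 ± 0.411 CPM (SD, n = 3, edgeR adjusted p = 0.0022). Smad3 stood at 28.8 ± 3.05 against 14.1 ± 3.62 CPM (SD, n = 3, edgeR adjusted p = 0.0085).

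Of 8 angiopoietin-like and EGFL relatives, 4 were tested, of which 2 rose, 1 fell and 1 did not pass (median log2 fold change 0.84). Angptl2, a secreted angiopoietin-like protein, rose to 27.4 ± 5.68 from 1.87 ± 1.41 CPM (SD, n = 3, edgeR adjusted p = 8.72e-04, log2 fold change 3.91 ± 0.47 SE, and 4.62 without pro-myeloid replicate 3). Angptl4, known as an inhibitor of lipoprotein lipase, rose to 23.1 ± 4.75 from 10.2 ± 0.864 CPM (SD, n = 3, edgeR adjusted p = 0.0037). Egfl8, the nearest relative of Egfl7, went the other way, with 0.0174 ± 0.0302 against 0.945 ± 0.192 CPM (SD, n = 3, edgeR adjusted p = 8.98e-04), and its pro-lymphoid reads all lay in replicate 5 (log2 fold change -5.57, and -8.24 without that library).

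**Figure D3:**
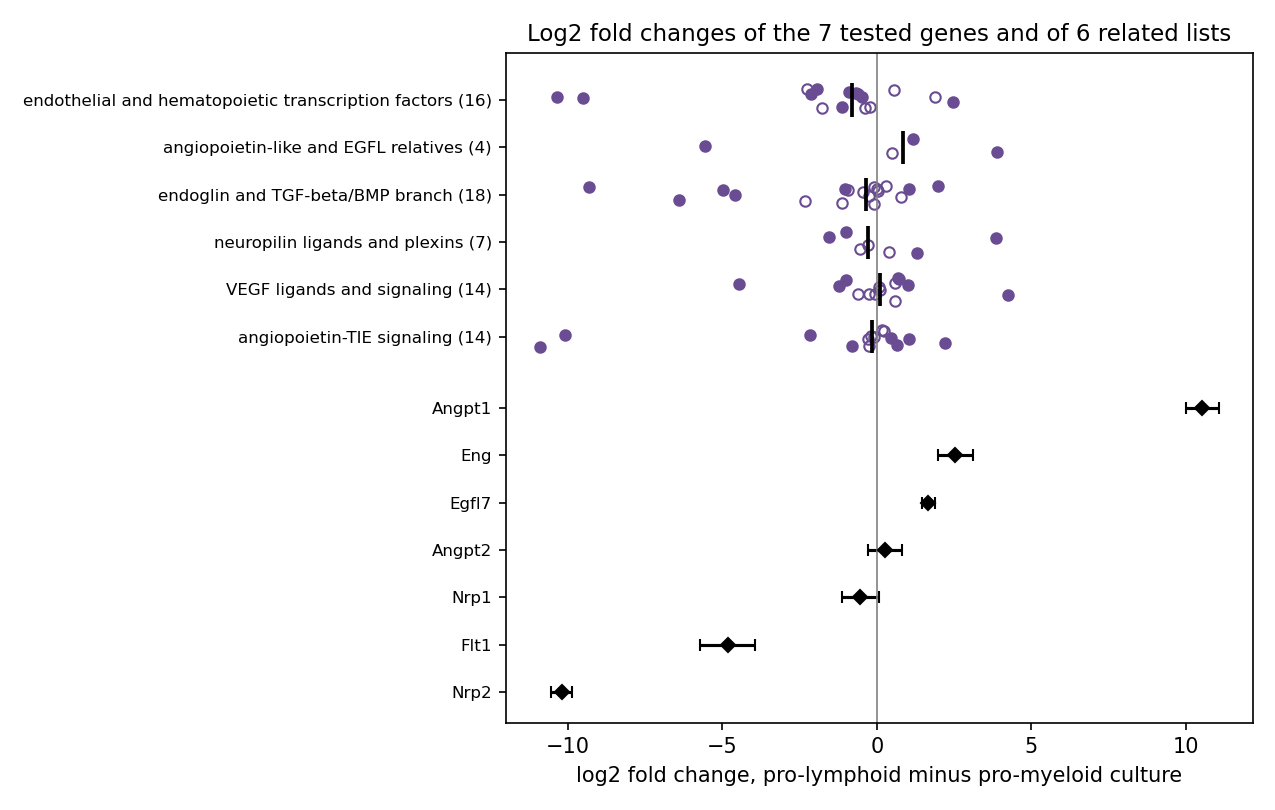
Log2 fold changes (x axis, positive where pro-lymphoid libraries were higher) of the 7 tested genes (diamonds with SE bars, bottom) and of the tested genes of 6 related lists (circles, top, with the number of tested genes, filled where the edgeR adjusted p was under 0.05), with a bar at each list's median. Among the 7 genes, Angpt1 at 10.53 and Nrp2 at -10.20 lie at opposite ends, Svep1 of the angiopoietin-TIE list lies farther left at -10.89, and the list medians lie between -0.79 and 0.84.

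Of 21 transcription factors of endothelial and hematopoietic cells, 16 were tested, of which 1 rose, 9 fell and 6 did not pass (median log2 fold change -0.79). Ets1, an ETS factor of endothelial and lymphoid cells, was nearly absent from pro-lymphoid libraries, at 0.190, 0.0785 and 0.140 CPM against 120, 78.5 and 101 CPM in pro-myeloid libraries (edgeR adjusted p = 1.17e-06, log2 fold change -9.49 ± 0.31 SE). Hif1a, the oxygen-regulated activator of Vegfa and Flt1, fell to 81.6 ± 4.88 from 309 ± 38.1 CPM (SD, n = 3, edgeR adjusted p = 5.88e-05). Etv6, an ETS repressor, was lower at 207 ± 9.46 against 451 ± 61.1 CPM (SD, n = 3, edgeR adjusted p = 7.47e-04). Epas1, which encodes the related HIF-2 alpha and is named after its values were seen, had 0 pro-lymphoid counts and was at least 161-fold lower there (4.07 ± 2.17 CPM in pro-myeloid culture, SD, n = 3, edgeR adjusted p = 0.00345). That limit was 102 to 110-fold without any 1 pro-lymphoid library. Tal1, the 1 factor that rose, stood at 17.3 ± 6.41 against 3.09 ± 2.27 CPM (SD, n = 3, edgeR adjusted p = 0.0126).

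The genes whose profiles over the 6 libraries lay nearest to each of these genes were found by the root-mean-square difference of centred log2(CPM + 0.5) values. For Angpt1 they were Cd96, a receptor of T and NK cells, at a difference of 0.43, then Etv4 (0.54), Epb4.1l4b (0.56), Slc14a1 (0.57) and Kctd14 (0.60). For Nrp2 they were Fhdc1 (0.16), Fzd1 (0.20), Ets1 (0.24), Ncam1 (0.24) and Rhoj (0.28). Flt1 lay nearest to Ptgs1 (0.48), Pcdh7 (0.59), Slc32a1 (0.64), Col4a2 (0.64) and Rgnef (0.65), so its nearest profiles were less close than those of Nrp2. Egfl7 lay nearest to Pdxp (0.11), Extl3 (0.12), Caprin2 (0.13), Armc3 (0.15) and Tagap (0.16). Nrp1 lay nearest to Sdc3 (0.18), Ptms (0.25), Clec10a (0.32), Slc27a1 (0.32) and Cttnbp2nl (0.33). With 0.1 in place of 0.5 added to the CPM, 4 of the 5 nearest genes were shared for Egfl7, 3 for Nrp2, and 2 each for Angpt1, Flt1 and Nrp1. For the low genes Eng and Angpt2 only 0 and 1 of the 5 nearest genes were shared, and they are not named.

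Markers of the cell types in which these genes are usually described were read from the same libraries. Of 16 endothelial markers, Cldn5, Emcn, Robo4 and Clec14a were at 0 counts in all 6 libraries, 7 were tested, 2 rose, 2 fell and 3 did not pass. The summed level was 497 to 758 CPM in pro-lymphoid and 469 to 541 CPM in pro-myeloid libraries, carried by Pecam1, Icam2 and Cd34, which blood cells also express. Cdh5, the VE-cadherin gene, rose to 2.73 ± 0.396 from 0.410 ± 0.254 CPM (SD, n = 3, edgeR adjusted p = 0.0021, log2 fold change 2.74 ± 0.40 SE, and 3.36 without pro-myeloid replicate 2). Cd34, a progenitor and endothelial surface protein, rose to 308 ± 105 from 117 ± 29.2 CPM (SD, n = 3, edgeR adjusted p = 0.00766). Vwf, the von Willebrand factor gene, was lower at 4.86 ± 1.68 against 10.7 ± 2.495 CPM (SD, n = 3, edgeR adjusted p = 0.0233), a call lost without pro-lymphoid replicate 1 or 6 or pro-myeloid replicate 3 (edgeR adjusted p = 0.0672, 0.0924 and 0.0692). Sele, the other marker that fell, had 13, 0 and 1 counts in pro-lymphoid and 61, 34 and 28 counts in pro-myeloid libraries (edgeR adjusted p = 0.0235). Without pro-lymphoid replicate 6 the number of endothelial markers past the threshold was 2.

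**Figure D4:**
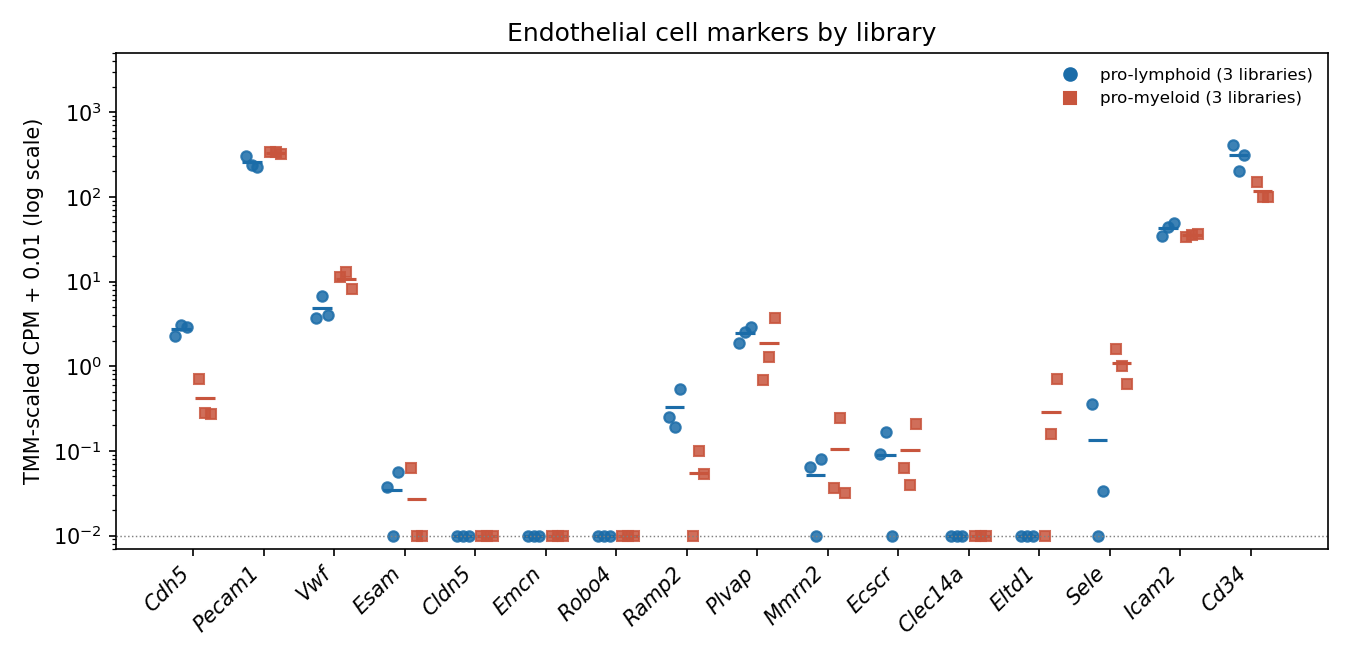
Levels of 16 endothelial cell markers (x axis) as scaled CPM plus 0.01 on a log y axis in each library, circles for pro-lymphoid and squares for pro-myeloid culture, with lines at the means and a dotted line at 0 counts. Pecam1, Icam2 and Cd34 lie above 30 CPM in all libraries, whereas Cldn5, Emcn, Robo4 and Clec14a lie at 0 counts in both cultures.

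Other cell types that express Nrp2, Flt1 or Angpt1 were read in the same way. Of 14 stromal markers, Col1a2, Col3a1, Dcn and Lum were at 0 counts in all libraries, and of 5 tested 4 were lower in pro-lymphoid culture, the remaining one not passing. Their sum was 2.33 to 20.1 CPM in pro-lymphoid and 27.5 to 52.2 CPM in pro-myeloid libraries. Of 9 mast cell and basophil markers, 5 were at 0 counts in all libraries, and the 3 tested were lower, with sums of 1.39 to 3.47 and 10.1 to 107 CPM. The groups of Hdc, 1 of these 3, overlapped, at 1.63, 0.942 and 1.26 CPM against 0.521, 29.8 and 76.3 CPM. Its call was lost with limma-voom (adjusted p = 0.352) and, in edgeR, without any single library other than pro-myeloid replicate 2 (edgeR adjusted p = 0.0526 to 0.0959). Between the cultures both sums moved in the direction of Nrp2 and Flt1. In pro-myeloid replicates 2, 3 and 4 the mast cell and basophil sum was 10.1, 44.9 and 107 CPM. The stromal sum was 42.2, 27.5 and 52.2 CPM in these libraries. Flt1 stood at 93.6, 15.2 and 22.2 CPM and Nrp2 at 151, 106 and 112 CPM there. The part of these cell types in the values of Nrp2 and Flt1 was not tested. Of 10 macrophage markers, 5 were tested, of which 2 rose and 1 fell, and the sums overlapped at 265 to 936 and 282 to 613 CPM. Mertk, the 1 that fell, had 0, 3 and 0 counts against 16, 12 and 15 counts (log2 fold change -3.68, edgeR adjusted p = 0.0120). Without pro-lymphoid replicate 5 the change was -6.86. Without pro-lymphoid replicate 6 it was -3.09, and the call was lost (edgeR adjusted p = 0.0560). Csf1r at 257 ± 131 against 455 ± 178 CPM and Emr1 at 58.8 ± 34.3 against 44.3 ± 28.0 CPM (SD, n = 3) did not pass. The 2 that rose differed widely. Cd163 stood at 4.58, 8.55 and 11.2 against 0, 0 and 0.0217 CPM (log2 fold change 9.46, and 11.28 without pro-myeloid replicate 4). Marco stood at 425, 122 and 41.0 against 1.30, 0.0296 and 0.152 CPM. Its log2 fold change was 8.63, 7.36 without pro-lymphoid replicate 1 and 10.89 without pro-myeloid replicate 2. Of 8 plasmacytoid dendritic cell markers, 6 were tested, of which 2 rose and 2 fell. The sums of 533 to 944 and 745 to 1226 CPM were carried by Tcf4, Runx2 and Cox6a2. Siglech rose to 50.3 ± 43.2 from 0.559 ± 0.664 CPM (SD, n = 3, log2 fold change 6.58). That change was 5.78 without pro-lymphoid replicate 5 and 7.95 without pro-myeloid replicate 3, and the call was lost with limma-voom (adjusted p = 0.0644). Pacsin1 also rose (log2 fold change 2.98, and 3.79 without pro-myeloid replicate 4). Tcf4 (-0.62) and Lair1 (-1.90) fell. Of 10 megakaryocyte and platelet markers, 3 were tested and 0 passed, with overlapping sums of 3.98 to 6.96 and 3.80 to 6.19 CPM. At an unadjusted p under 0.05, edgeR also gave 0 of these 3, and DESeq2 and limma-voom called 0, while 1 gene of the list passed with no filter or without pro-myeloid replicate 2 or 3.

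The labelled cell type was read from 10 markers of hematopoietic stem cells. Of these, 5 were tested, of which 1 fell and 4 did not pass, and the sums were 24.2 to 37.3 CPM in pro-lymphoid and 17.5 to 24.1 CPM in pro-myeloid libraries. Hlf, Slamf1 and Fgd5, markers of the stem cell end of the population that are named after their values were seen, had 0 counts in all pro-lymphoid libraries and at most 0.304 CPM in a pro-myeloid library. Other markers of the list were present in both cultures and had a higher mean in the pro-lymphoid one without passing the test, namely Mllt3 (12.4 ± 3.80 against 5.81 ± 4.79 CPM), Ctnnal1 (7.72 ± 1.19 against 4.76 ± 2.29 CPM) and Ly6a (8.94 ± 11.2 against 5.06 ± 2.22 CPM, SD, n = 3). Further markers went the other way. Hoxb5, the 1 that fell, had 0 counts in pro-lymphoid and 60, 150 and 181 counts in pro-myeloid libraries (edgeR adjusted p = 0.0039). Procr, with too few counts for the test, stood at 0.0252 ± 0.0262 against 0.459 ± 0.462 CPM (SD, n = 3). Pdzk1ip1 stood at 0.247 ± 0.0392 against 0.558 ± 0.327 CPM (SD, n = 3) and did not pass. Cd34 was abundant in both cultures. Without pro-myeloid replicate 2 the number of stem cell markers past the threshold was 4, Mllt3 among them. Mllt3 is the gene of AF9, the partner in the MLL-AF9 fusion. Whether reads of the fusion transcript are part of its counts was not tested.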

How the data were processed

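Polyadenylated RNA of 6 mouse cell libraries was measured, 3 from pro-lymphoid and 3 from pro-myeloid culture. The NEBNext Ultra kit named in the labels' protocols keeps no strand information, and reads were single-end. The deposited file is 1 table of raw read counts per gene. Per the file headers, primary alignments were counted with featureCounts 1.5.1 over exons of the UCSC mm10 annotation. The submitters' processing notes name TopHat, Bowtie, Trimmomatic, DESeq2 and featureCounts, with no settings. Replicate libraries of a group all differed by more than sampling noise (lowest chi-square over its degrees of freedom 37.8). The table held 0 columns of other samples.

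Counts were tested across all genes with edgeR 4.0.16 in R 4.3.3 (filterByExpr with a minimum count of 10, TMM scaling, quasi-likelihood F test, two-sided, Benjamini-Hochberg adjustment at 0.05). Log2 fold changes are pro-lymphoid minus pro-myeloid, and the SE was derived from the F statistic. The procedure was tested on simulated data. For a group at 0, 3 counts over that group served as the floor, and counting intervals are exact at 95%. Reads are not independent molecules, so both cover counting error only. Only the primary alignment of a multi-mapping read was counted, without strand, so reads of near-identical or overlapping genes are uncertain.

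The 10 genes and the 13 lists (181 symbols) were chosen with earlier results of these data known. The text names all 10 genes, the ligands and partners Angpt4, Vegfa, Vegfb, Vegfc, Figf, Pgf, Flt4, Ptprb and Acvrl1, up to 3 further genes of each pathway list with the smallest adjusted p, and the 5 nearest profiles of each tested gene except Eng and Angpt2, whose nearest profiles were left out after they were seen to change with the added constant. Epas1, Fpgs, Smad3, Smad6, Tal1, Sele, Hlf, Slamf1, Fgd5, Procr, Ly6a, Ctnnal1, Csf1r, Emr1 and other markers named for standing at 0 or for high levels fall outside this rule. For Smad3, Smad6, Tal1, Sele, Procr, Ly6a, Ctnnal1, Csf1r, Emr1 and Tcf4, values without a library are not given. Several genes that the rule picks from the lists of blood and stromal cell types are given as counts only. Alternatives were RLE size factors, no scaling factors, DESeq2 1.42.0, a filter of 1 CPM in 3 libraries or none, limma-voom (limma 3.58.1), 0.1 in place of 0.5 in the profiles, and each library left out in turn.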

Additional observations from a re-analysis of the deposited data

How the results depend on the processing

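No paired analysis was made because the labels name no pairs. The replicate numbers run on over the libraries of both groups, so whether cultures were paired is not known. The number of genes past the threshold, 4821 of 12477 (2169 higher and 2652 lower), was 4421 to 5432 with the other scalings, filters and tools. With 1 library left out it was 3086 to 5385, with 1298 to 2478 higher and 1788 to 2907 lower. For the 10 genes only fitted log2 differences are given. Over the alternatives that tested them, Angpt1 ranged from 10.07 to 11.93, Nrp2 from -11.08 to -9.77, Flt1 from -5.33 to -3.61, Eng from 2.22 to 3.51, Egfl7 from 1.48 to 1.85 and Nrp1 from -1.61 to -0.19. Angpt2 ranged from -0.12 to 0.64, being negative only without pro-myeloid replicate 3. With a filter of 1 CPM, Eng and Angpt2 were not tested. For 44 other list genes, 496 values under alternatives kept their side of the threshold, 25 lost it and 3 gained it, and 0 values that had passed changed direction. Of the 496, 9 changed sign, 8 of them of Gp9 (-0.0046 in the test as reported) and 1 of Acvrl1 (0.01 without pro-myeloid replicate 3), neither of which passed. Without scaling factors the median of all genes moved to 0.04 from -0.000195. Depth limits Tek, Tie1, Kdr, Angpt4, Figf and Flt4, which had too few counts for the test as reported. Tie1 was fitted under some alternatives, at -7.54 with no filter and -8.02 without pro-myeloid replicate 2, both with 0 pro-lymphoid counts.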
